A study of Sus scrofa with 5 samples.

Results

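In sensory neuron nuclei of the pig dorsal root ganglion, 7 receptor genes were followed: the metabotropic glutamate receptors GRM5, GRM3, GRM7 and GRM8, the muscarinic acetylcholine receptor CHRM2, the neuropeptide Y receptor NPY2R and the cannabinoid receptor CNR1. All 7 were listed by name, and all 7 had a row among the 30477 rows of the count table. They were chosen because of how their levels differed between groups of nuclei in this same table, so those levels are a description and none of them was tested. Nuclear RNA was measured nucleus by nucleus, with 3' droplet chemistry, in ganglia of thoracic and lumbar levels from 5 untreated male pigs of the Landrace breed, whose ages the sources used here do not give. Nuclei were isolated with protocols that differed in detergent and in the separation from debris, and neuronal nuclei were enriched with an antibody against NeuN in some of them. Barcodes fell into 6 libraries, and since neither a pig nor an isolation protocol could be matched to any of them, the whole table stands for 1 pooled sample. There are no replicates, and the 95% intervals reflect the counting of molecules alone, so they say nothing of differences among animals.

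All 7 genes encode receptors that act through G proteins. GRM5, a group I metabotropic glutamate receptor, couples to Gq and phospholipase C, while the group II receptor GRM3, the group III receptors GRM7 and GRM8, CHRM2, NPY2R and CNR1 couple to inhibitory Gi and Go proteins. At the terminals of sensory neurons, receptors of the inhibitory kind are known to lower calcium entry and transmitter release, and they have been studied as targets for pain relief.

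In all, 2189 nuclei gave 17277376 UMIs (unique molecular identifiers, each standing for 1 captured RNA molecule), with 501 to 338372 per nucleus and a median of 4565. Libraries held 13 to 805 nuclei with median depths of 676 to 12038 UMIs, and the median mitochondrial share ran from 0.0605% in library 6 to 18.5% in library 3. No barcode was shared between libraries. Library 2 stood apart with 13 nuclei, 3 of them above 50000 UMIs, and library 4 held 37 of the 61 nuclei that a doublet caller marked. Nuclei were clustered without the 7 genes or their pathway, and each of 23 clusters joined the group of the marker gene that stood highest in it. Libraries were not integrated, and many clusters came almost wholly from 1 library.

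In 21 clusters with 2004 nuclei a marker reached at least 2-fold over the rest of the same libraries, and these formed 8 groups. The groups were TRPM8 (cold sensor, 413 nuclei, median 1703 UMIs), IL31RA (itch cytokine receptor, 211 nuclei, 8104 UMIs), GFRA2 (neurturin co-receptor, 217 nuclei, 7997 UMIs), ADCYAP1 (the peptide PACAP, 532 nuclei, 5107.5 UMIs), KIT (stem cell factor receptor, 160 nuclei, 3947.5 UMIs), NTRK2 (BDNF receptor, 78 nuclei, 2714.5 UMIs), NTRK3 (neurotrophin-3 receptor, 160 nuclei, 4640 UMIs) and PVALB (parvalbumin, 233 nuclei, 5389 UMIs). Levels are given as counts per 1000000 UMIs (CPM), with the UMIs of a gene summed over a group and divided by all UMIs of that group. Each marker was highest in its own group except KIT, which stood at 472 CPM in the KIT group and 516 CPM in the NTRK2 group. The 185 nuclei in the other 2 clusters carried no marker at that level and are called unassigned. The TRPM8 group holds 1 cluster of 295 shallow nuclei, 290 of them from library 1, with a median of 1435 UMIs and APOE, a gene of satellite glia, as its leading gene. TRPM8 was not among its 10 leading genes, although 66 of the 295 nuclei held a TRPM8 UMI (449 CPM). Its label did not hold at other resolutions of the clustering: 244 of the 295 nuclei carried no marker at resolution 1.5, and 293 joined ADCYAP1 at 0.5. They are counted in the TRPM8 group by the marker rule alone, and the GRM3 level and the C-fibre comparison are also given without them.

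Against all other nuclei, 8 of the 56 pairs of a receptor gene and a marker group were at least 2-fold higher in the group and 20 were at least 2-fold lower. Over all 13304 genes with at least 50 UMIs, the share at least 2-fold higher ran from 2.46% in the TRPM8 group to 17.4% in the PVALB group. In the TRPM8 group 1 of the 7 receptors was at least 2-fold higher, against that 2.46%, and 3 were at least 2-fold lower, against 6.75% of all genes. The IL31RA group also had 1 higher (2.53% of all genes) and 3 lower (10.8%). The GFRA2 group had 0 higher (3.37%) and 5 lower (8.91%). In the ADCYAP1 group 1 was higher (2.59%) and 1 lower (8.25%). The KIT group had the most receptors on the higher side, with 2 of 7 (4.71% of all genes), and 1 lower (15.9%). In the NTRK2 group 1 was higher (8.52%) and 1 lower (17.5%), the NTRK3 group had 1 higher (13.5%) and 1 lower (19.9%), and the PVALB group had 1 higher (17.4%) and 5 lower (25.4%). Of the 28 pairs past 2-fold, 2 had a counting interval that included 1, CNR1 in TRPM8 nuclei (2.07-fold lower, 0.78 to 7.77) and NPY2R in PVALB nuclei (2.15-fold lower, 0.96 to 5.98). Because these levels chose the genes, nothing is read from the counts beyond that description. The median of all genes lay between -0.20 (PVALB) and -0.01 (NTRK3) on the log2 scale in these comparisons.

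**Figure D1:**
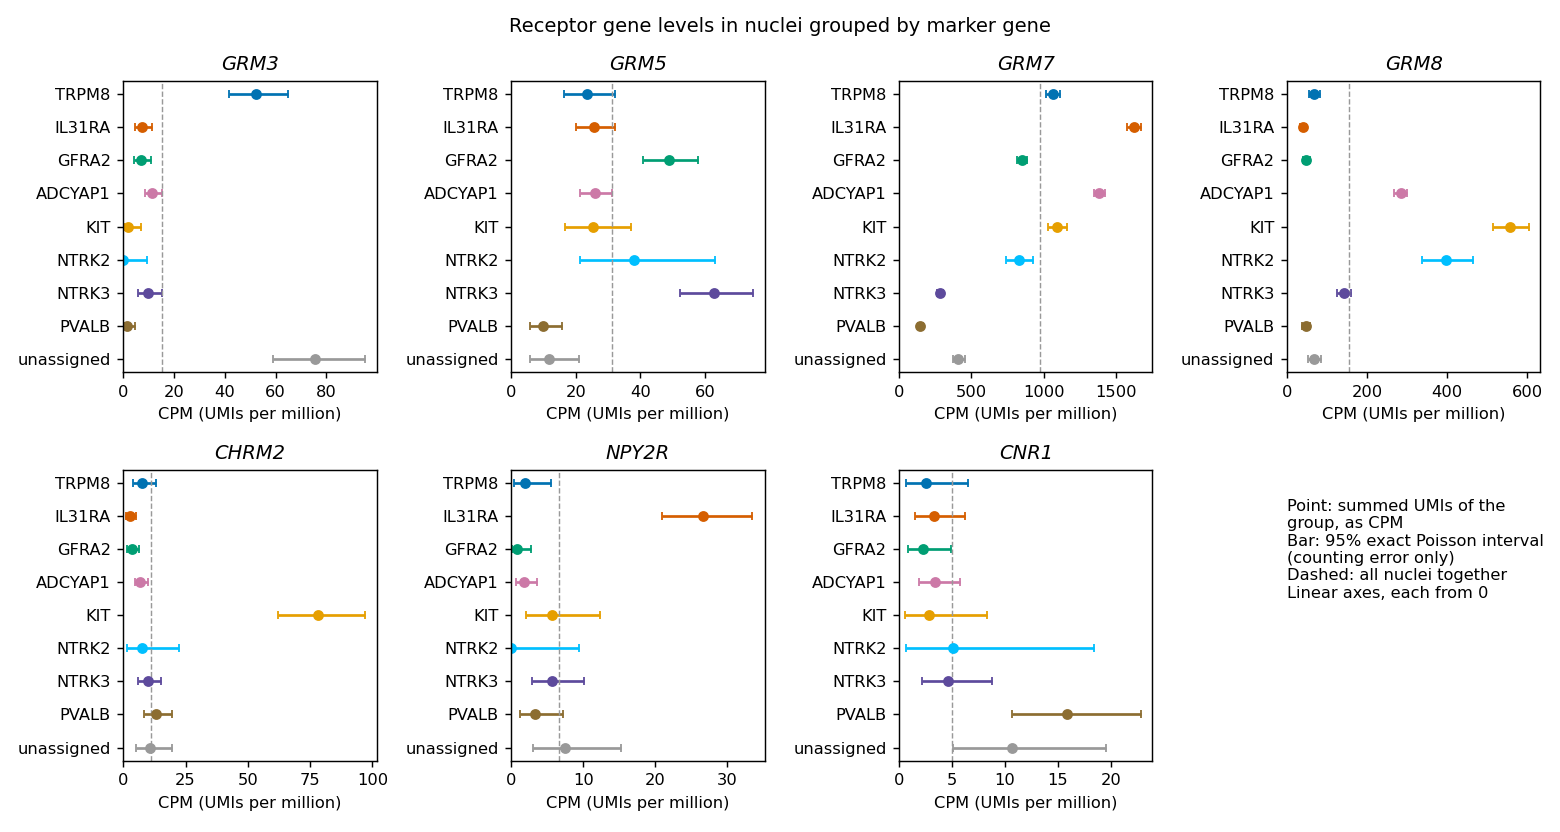
Level of each receptor gene in each marker group and in unassigned nuclei, in CPM on linear axes from 0, with bars for the 95% counting interval and a dashed line for all nuclei. The highest marker group is IL31RA for GRM7 (1627 CPM) and NPY2R (26.6 CPM), KIT for GRM8 (557 CPM) and CHRM2 (78.1 CPM), TRPM8 for GRM3 (52.4 CPM), NTRK3 for GRM5 (62.8 CPM) and PVALB for CNR1 (15.9 CPM).

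GRM5, the only Gq-coupled receptor of the 7, was highest in nuclei of the NTRK3 group and lowest in the PVALB group. The gene lies on chromosome 9 of the Sscrofa11.1 assembly, at chr9:21914422-22438200 in the RefSeq annotation. Its 537 UMIs over all nuclei came to 1.03 UMIs per kilobase of the annotated gene. It reached 62.8 CPM in the NTRK3 group, against 27.1 CPM in all other nuclei, a 2.32-fold difference with a counting interval of 1.88 to 2.84. The next groups in order were GFRA2 with 48.7 CPM and NTRK2 with 38.1 CPM, and the intervals of the ratios between these neighbours included 1. ADCYAP1, IL31RA, KIT and TRPM8 followed between 23.4 and 25.9 CPM, a plateau in which no neighbours were apart beyond counting error. PVALB nuclei, at 9.85 CPM, were apart from the TRPM8 group above them by 2.37-fold (1.32 to 4.42).

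The GRM5 difference was not the same in every library. NTRK3 nuclei had 108 CPM in library 3, against 25.2 CPM in the other nuclei of that library. Library 4 gave 50.5 CPM in NTRK3 nuclei, against 22.4 CPM, and library 6 gave 67.9 CPM, against 29.8 CPM. Library 5 went the other way, with 35.6 CPM from 9 UMIs in NTRK3 nuclei, against 52.0 CPM in its other nuclei. Libraries 1 and 2 held 1 NTRK3 nucleus each and could not be read. Across both NTRK3 clusters GRM5 was at 56.3 CPM and 102 CPM, so neither cluster alone made the group high. With each nucleus grouped by its own highest marker the log2 difference was 0.82, under 2-fold, against 1.21 by clusters.

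The second GRM5 group, GFRA2, was 1.75-fold above all other nuclei (1.43 to 2.14), at 48.7 CPM against 27.8 CPM. Its largest contribution from 1 nucleus was 18 of 131 UMIs, and without that nucleus the level was 42.2 CPM. Within libraries the GFRA2 nuclei were above the other nuclei in libraries 1, 3 and 5, with 40.4 against 11.9 CPM, 58.1 against 26.2 CPM and 75.0 against 39.7 CPM. All 13 GFRA2 UMIs of library 1 came from 1 nucleus. In library 3 the nucleus with 18 UMIs gave most of the 31, so both of these differences rest largely on 1 nucleus each. In library 6 they were nearly level, with 38.7 CPM against 35.3 CPM. Thinning sampled 1000 UMIs from each nucleus that had them and left out 125 shallower nuclei, 48 of them TRPM8, 19 NTRK3 and 2 PVALB. At that equal depth 16 of 141 NTRK3 nuclei (11.3%) kept a GRM5 UMI, against 1 of 231 PVALB nuclei (0.433%). Unthinned, the shares were 31.2% of NTRK3 nuclei at a median of 4640 UMIs and 6.44% of PVALB nuclei at 5389 UMIs. No group is known to lack these receptors, so the lowest group stands in as the level that free RNA could give.

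GRM3, which also binds the peptide transmitter NAAG, was led by the TRPM8 group among the marker groups and stood higher still in a cluster that no marker named. It lies at chr9:93731210-93974718, and its 264 UMIs came to 1.08 UMIs per kilobase. TRPM8 nuclei had 52.4 CPM from 83 UMIs, against 11.5 CPM in all other nuclei, a 4.54-fold difference (3.46 to 5.93). ADCYAP1, NTRK3, IL31RA and GFRA2 nuclei followed at 11.5, 9.77, 7.30 and 7.06 CPM, and no neighbours among them were apart. KIT nuclei had 2 UMIs (1.88 CPM), PVALB nuclei had 3 UMIs (1.64 CPM) and NTRK2 nuclei had none of 393231 UMIs, which allows a level of up to 7.63 CPM by a floor of 3 counts and 9.38 CPM by the exact interval. All other nuclei had 15.6 CPM, and the interval of the difference began at 1.66-fold lower, so this pair counts as past 2-fold only by the floor.

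Within libraries, TRPM8 nuclei were above the others wherever at least 10 nuclei and 10 UMIs could be compared. They had 20.3 CPM in library 1, against 6.41 CPM in its other nuclei. Library 3 had 97.5 CPM in TRPM8 nuclei, against 8.29 CPM. Library 5 had 40.3 CPM, against 16.2 CPM, and library 6 had 60.6 CPM, against 15.1 CPM. The shallow cluster of library 1 was the lowest of the 3 TRPM8 clusters at 32.3 CPM, and 16 of its 22 GRM3 UMIs came from 1 nucleus of library 2. Markers of satellite glia, 6 genes summed, stood at 3356 CPM in that cluster, against 162 and 394 CPM in the other TRPM8 clusters, which had 57.1 and 97.5 CPM of GRM3. Without the shallow cluster the log2 difference was 2.55, against 2.18 with it. After thinning, 10 of 365 TRPM8 nuclei (2.74%, 1.32 to 4.98%) kept a GRM3 UMI. None of 148 KIT nuclei did, which allows up to 2.46%, and none of 231 PVALB nuclei, which allows up to 1.58%. The TRPM8 interval overlapped both ranges, and such overlap alone does not decide whether the shares differed at that depth. Against all other nuclei the thinned log2 difference was 1.09. The unthinned shares were 9.44% of TRPM8 nuclei at a median of 1703 UMIs and 1.25% of KIT nuclei at 3947.5 UMIs.

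GRM3 was at 152 CPM (118 to 191) in the unassigned cluster of 102 nuclei led by UNC5D, a netrin receptor, more than in any marker group. Its 70 UMIs came from 32 nuclei, and 22 of them came from 1 nucleus of library 4. All unassigned nuclei together stood at 75.3 CPM, against 11.8 CPM in the nuclei of marker groups, and at 56.0 CPM without that nucleus. In library 1 the unassigned nuclei had 187 CPM, against 4.95 CPM in the rest. Libraries 3, 5 and 6 had 40.4 against 8.87 CPM, 58.2 against 17.2 CPM, and 76.9 against 17.2 CPM. The cluster is called by its leading genes, UNC5D, RNF150, TOX2 and TOX3, and was given no cell type.

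GRM7, the group III receptor known from presynaptic active zones and for its low affinity for glutamate, was by far the most often counted of the 7. It lies at chr13:63318002-64203982. Its 16792 UMIs came to 19.0 UMIs per kilobase of the annotated gene, against 3.30 for GRM8, 13.6 for NPY2R, 3.16 for CNR1, 1.34 for CHRM2 and just over 1 for GRM3 and GRM5. Counting from 3' ends does not scale simply with gene length, and the sources used here do not say whether introns were counted. At least 1 GRM7 UMI was found in 1677 of 2189 nuclei (76.6%).

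GRM7 was lowest in the large-fibre groups NTRK3 and PVALB, while NTRK2 nuclei, also marked as large-fibre, stood level with the GFRA2 group. It stood at 1627 CPM in IL31RA nuclei, 1386 in ADCYAP1, 1094 in KIT, 1064 in TRPM8, 849 in GFRA2, 829 in NTRK2, 282 in NTRK3 and 145 in PVALB nuclei. KIT and TRPM8 were not apart beyond counting error, nor were GFRA2 and NTRK2, and every other step in that order was. Without its shallow cluster the TRPM8 group stood at 1263 CPM. The IL31RA group was 1.92-fold above all other nuclei (1.85 to 1.99), short of 2-fold, and the largest steps were at the low end. NTRK2 nuclei were 2.94-fold above NTRK3 nuclei (2.56 to 3.38), and NTRK3 nuclei were 1.94-fold above PVALB nuclei (1.67 to 2.26).

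In PVALB nuclei the low GRM7 level was found in each library that could be compared. They had 187 CPM in library 1, against 1072 CPM in its other nuclei. Library 3 had 39.8 CPM from 6 UMIs, against 1457 CPM, and library 4 had 31.2 CPM from 10 UMIs, against 492 CPM. The PVALB level was thus several times higher in library 1 than in libraries 3 and 4. In library 4, 20 of the 24 PVALB nuclei form a cluster led by SFRP5, SPARC and other genes that do not include PVALB, and 11 of those 20 held a PVALB UMI (406 CPM). Without that cluster the log2 difference of GRM7 in PVALB nuclei was -2.67, against -2.88 with it. In library 1, the PVALB cluster also held satellite glia markers at 2122 CPM, against 515 CPM in the cluster mostly from library 3, while the cluster from library 4 held 3918 CPM, and their part in the GRM7 level was not tested. NTRK3 nuclei were low in each of 4 libraries, with 570, 277, 332 and 181 CPM in libraries 3, 4, 5 and 6, against 1459, 484, 939 and 1269 CPM in the other nuclei. In library 4, 136 of their 181 GRM7 UMIs came from 1 nucleus.

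At the top of the order the library values of GRM7 overlapped. IL31RA nuclei had 1380, 2064, 1385 and 1951 CPM in libraries 1, 3, 5 and 6, against 602, 1300, 775 and 903 CPM in the other nuclei of those libraries. ADCYAP1 nuclei had 1227, 2056, 884, 994 and 1208 CPM in libraries 1, 3, 4, 5 and 6, against 638, 1158, 337, 835 and 1043 CPM. In library 3 both groups were at nearly the same level. One IL31RA nucleus of library 6 with 338372 UMIs held 656 GRM7 UMIs, and without it the group stood at 1583 CPM. Thinned to 1000 UMIs, 72.6% of IL31RA nuclei kept a GRM7 UMI, against 10.8% of PVALB nuclei, and unthinned the shares were 97.6% and 33.9%.

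**Figure D2:**
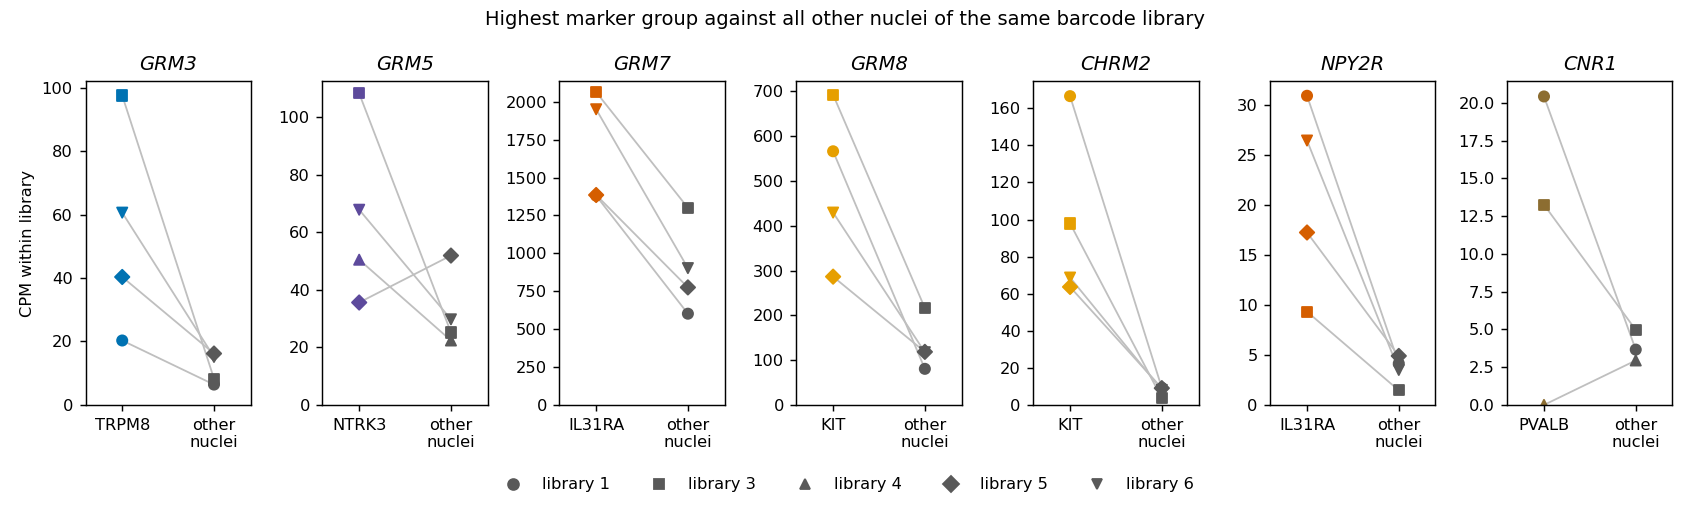
Level of each receptor gene in its highest marker group and in all other nuclei of the same library, in CPM, with 1 point per library that held enough nuclei to compare. GRM3, GRM7, GRM8, CHRM2 and NPY2R are higher in the marker group in each library shown, while GRM5 is lower in library 5 (35.6 CPM, against 52.0 CPM) and CNR1 is at 0 in PVALB nuclei of library 4.

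GRM8, the group III receptor with high affinity for glutamate, took another order across the same nuclei. It lies at chr18:20945049-21756952, and 840 nuclei (38.4%) held at least 1 of its 2677 UMIs. KIT nuclei stood at 557 CPM, against 129 CPM in all other nuclei, a 4.33-fold difference (3.95 to 4.75). NTRK2 nuclei followed at 397 CPM, ADCYAP1 at 284 CPM, NTRK3 at 141 CPM and TRPM8 at 66.9 CPM, each apart from its neighbours beyond counting error. GFRA2, PVALB and IL31RA nuclei formed the low end at 48.0, 46.0 and 40.1 CPM and were not apart from each other. IL31RA nuclei, highest of all for GRM7, were thus among the 3 lowest groups for GRM8. The order within those 3 differed between libraries. IL31RA nuclei had 6.51 and 13.1 CPM in libraries 1 and 3, against 46.7 and 26.2 CPM in GFRA2 nuclei, but 86.2 and 69.4 CPM in libraries 5 and 6, against 77.7 and 51.6 CPM. Without library 1 the GRM8 log2 difference of PVALB nuclei was -3.33, against -1.87 with it.

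KIT nuclei were above the others for GRM8 in each of the 4 libraries that could be compared. They had 566 CPM in library 1, against 80.6 CPM in its other nuclei, and 693 CPM in library 3, against 216 CPM. Library 5 had 286 CPM in KIT nuclei, against 119 CPM, and library 6 had 430 CPM, against 118 CPM. Library 4 held 5 KIT nuclei, too few to compare, and library 2 held none. 1 KIT nucleus of library 4 gave 95 of the 592 UMIs of the group, which stood at 520 CPM without it. Both KIT clusters were high, with 684 and 460 CPM. After thinning, 37.2% of KIT nuclei kept a GRM8 UMI, against 1.92% of IL31RA nuclei, and the unthinned shares were 69.4% at a median of 3947.5 UMIs and 17.1% at 8104 UMIs.

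ADCYAP1 nuclei carried GRM8 at 2.47-fold the level of all other nuclei (2.29 to 2.67), with the same direction in each of 5 libraries. Their level was 480 CPM in library 3, against 186 CPM, and between 192 and 340 CPM in libraries 1, 4, 5 and 6, against 56.3 to 168 CPM. The NTRK2 group was not uniform. Its first cluster, led by GPC5 and NTRK2, had 74.5 CPM of GRM8 from 9 UMIs, and its second, led by DCC, had 540 CPM from 147 UMIs. In that second cluster the KIT score (2.167) nearly equalled the NTRK2 score (2.185) that placed it. Where each nucleus was instead grouped by its own highest marker, without clusters, the log2 difference of GRM8 in the NTRK2 group was -0.96, against 1.41 by clusters, so its place in the order rests on that cluster. By the same grouping the GRM8 difference was 0.14 in TRPM8 nuclei, against -1.29 by clusters, and 0.69 in ADCYAP1 nuclei, under 2-fold, against 1.30 by clusters. GRM5 was split in the NTRK2 group too, with 8.28 CPM from 1 UMI in the first cluster and 51.4 CPM in the second.

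The balance of both group III receptors made the contrast between groups plain. GRM8 made up 2.41% of the summed GRM7 and GRM8 UMIs in IL31RA nuclei (1.98 to 2.89%), 5.35% in GFRA2, 5.92% in TRPM8, 17.0% in ADCYAP1, 24.1% in PVALB, 32.4% in NTRK2, 33.4% in NTRK3 and 33.8% in KIT nuclei (31.5 to 36.0%). In other terms, IL31RA nuclei held 40.6 GRM7 UMIs for each GRM8 UMI, and KIT nuclei held 1.96. The share does not depend on the total that levels are scaled to. Corrected for the lengths of the annotated genes, it was 2.62% in IL31RA nuclei and 35.7% in KIT nuclei.

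The GRM8 share varied between libraries but not enough to mix the extremes. IL31RA nuclei had 0.469, 0.629, 5.86 and 3.44% in libraries 1, 3, 5 and 6. KIT nuclei had 26.2, 31.4, 24.0 and 34.5% in the same libraries, so the groups did not overlap. ADCYAP1 nuclei were between them in each of these libraries, at 15.4, 18.9, 17.8 and 13.7%, and at 27.8% in library 4. NTRK3 nuclei ranged more widely, with 45.0, 23.9, 20.8 and 35.9% in libraries 3, 4, 5 and 6. The value of library 4 includes 1 nucleus with 136 of the 181 GRM7 UMIs there. The NTRK2 clusters lay at 7.32% and 40.9%, far apart within 1 group.

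**Figure D3:**
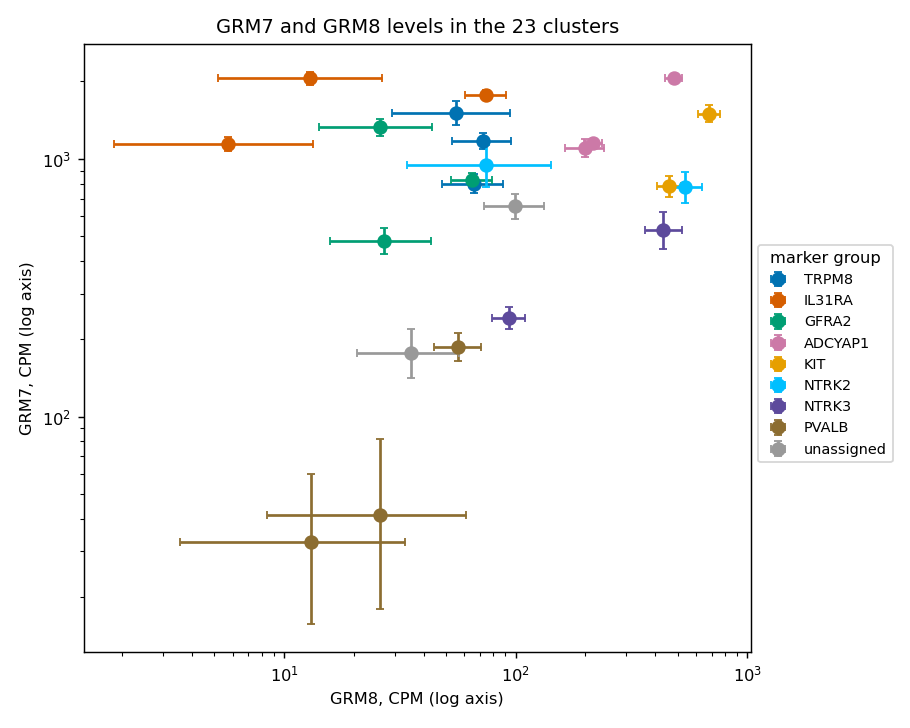
GRM7 level against GRM8 level in each of the 23 clusters, in CPM on log axes, coloured by marker group, with bars for the 95% counting intervals. IL31RA clusters lie at the upper left (GRM8 at 5.69 to 74.2 CPM), KIT clusters at the upper right (460 and 684 CPM), and PVALB clusters at the bottom, with GRM7 at 32.5 to 186 CPM.

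CHRM2, the M2 muscarinic receptor for acetylcholine, had the largest difference of the 7 between its highest group and all other nuclei. It lies at chr18:12455139-12600314. KIT nuclei held 83 of its 195 UMIs, at 78.1 CPM, against 6.91 CPM in all other nuclei, an 11.3-fold difference (8.41 to 15.2). The other 7 groups lay between 2.55 CPM in IL31RA and 13.1 CPM in PVALB nuclei, and no neighbours among them were apart beyond counting error. The ends of that range were, with intervals of 1.03 to 5.26 CPM in IL31RA and 8.42 to 19.5 CPM in PVALB nuclei. The KIT group was 5.95-fold above the PVALB group next to it (3.74 to 9.80).

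Each of the 4 libraries that could be compared showed CHRM2 on the same side. KIT nuclei had 167 CPM in library 1, from 5 UMIs in 11 nuclei, against 9.21 CPM in the other nuclei. In library 3 they had 97.9 CPM, against 3.66 CPM. Library 5 had 63.7 CPM, against 9.05 CPM, and library 6 had 68.7 CPM, against 8.11 CPM. The 2 KIT clusters, of 116 nuclei mostly from library 3 and of 44 nuclei from libraries 4, 5 and 6, had 99.8 and 61.5 CPM. In the first, CHRM2 ranked second among the genes that set the cluster apart. It was not used for clustering, but it was chosen by its levels in this same table, so the rank is a description only. The second NTRK2 cluster, close to KIT by its score, had 1 CHRM2 UMI (3.67 CPM), so it shared GRM8 with the KIT nuclei but not this level of CHRM2.

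Of 160 KIT nuclei, 44 (27.5%) held a CHRM2 UMI at a median group depth of 3947.5 UMIs, against 7 of 211 IL31RA nuclei (3.32%) at 8104 UMIs. After thinning the shares were 8.11% and 0.481%. The 44 KIT nuclei with a CHRM2 UMI were deeper than the 116 without, with medians of 6776 and 2894.5 UMIs. They carried GRM8 at 573 CPM (510 to 642), against 542 CPM (481 to 608) in those without. GRM7 was lower in them, at 903 CPM against 1281 CPM, on sums, and at 1002 CPM against 1100 CPM as a mean over nuclei. The marker KIT was higher in them, at 535 CPM (474 to 601) against 409 CPM (357 to 467) on sums, and at 457 CPM against 262 CPM as a mean over nuclei. KIT nuclei with and without a CHRM2 UMI thus differed in depth, in KIT and, on sums, in GRM7, while their GRM8 intervals overlapped. They also differed in cluster. Those with a CHRM2 UMI were 25 of 116 nuclei in the first KIT cluster, with GRM7 at 1499 CPM. In the second they were 19 of 44, with GRM7 at 783 CPM. The part of this mix in the GRM7 difference was not tested.

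NPY2R, a receptor that dampens transmitter release when bound by neuropeptide Y, was highest in IL31RA nuclei. Its gene is the shortest of the 7, 8440 bases at chr8:74039959-74048398. IL31RA nuclei held 73 of its 115 UMIs, at 26.6 CPM, against 2.89 CPM in all other nuclei, a 9.22-fold difference (6.22 to 13.8). NTRK3 and KIT nuclei followed at 5.66 and 5.65 CPM, and the IL31RA group was 4.71-fold above the NTRK3 group (2.48 to 9.84). PVALB, TRPM8, ADCYAP1 and GFRA2 nuclei had 6, 3, 7 and 2 UMIs, and NTRK2 nuclei had none. No neighbours below IL31RA were apart beyond counting error, although the intervals of NTRK3 (2.82 to 10.1 CPM) and GFRA2 (0.09 to 2.69 CPM) did not overlap.

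One IL31RA nucleus of library 2 held 18 of the 73 NPY2R UMIs. Without it the IL31RA level was 22.2 CPM and the log2 difference 2.94, against 3.20 with it. In library 1 IL31RA nuclei had 30.9 CPM, against 4.15 CPM in its other nuclei. Library 3 had 9.33 CPM from 5 UMIs, against 1.45 CPM, library 5 had 17.2 CPM from 7 UMIs, against 4.90 CPM, and library 6 had 26.4 CPM, against 3.50 CPM. IL31RA nuclei were therefore higher in all 4 libraries that could be compared, on small counts. The 3 IL31RA clusters stood at 42.1, 9.21 and 23.5 CPM.

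Of 211 IL31RA nuclei, 40 (19.0%) held an NPY2R UMI, against 7 of 532 ADCYAP1 nuclei (1.32%) at a median of 5107.5 UMIs. After thinning only 4 of 208 (1.92%) and 0 of 519 (up to 0.708%) were left, so the thinned level rests on a handful of molecules. IL31RA nuclei with and without an NPY2R UMI had medians of 13149 and 7294 UMIs. Both kinds carried GRM7 at nearly the same level, 1599 and 1650 CPM, and GRM8 at 42.4 and 38.2 CPM. GRM5 was at 17.1 CPM (10.6 to 26.2) in nuclei with an NPY2R UMI, against 32.3 CPM (23.9 to 42.7) in those without, and these intervals overlapped. Nuclei with an NPY2R UMI were 4 of 80 in the cluster mostly from library 3, where GRM5 was at 55.3 CPM. They were 19 of 70 and 17 of 61 in the other IL31RA clusters, where GRM5 was at 10.3 and 23.5 CPM. The part of this mix in the GRM5 levels was not tested.

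CNR1, the CB1 receptor for endocannabinoids, was the least often counted of the 7, and its difference between groups rested on 1 library. It lies at chr1:56466022-56493275. PVALB nuclei held 29 of its 86 UMIs, at 15.9 CPM, against 3.69 CPM in all other nuclei, a 4.30-fold difference (2.65 to 6.84). The next group, NTRK2, had 2 UMIs (5.09 CPM), and its ratio to PVALB had an interval of 0.79 to 27.0. The remaining groups had 2.23 to 4.63 CPM.

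Of the 29 PVALB UMIs of CNR1, 27 came from library 1, at 20.4 CPM, against 3.66 CPM in the other nuclei of that library. Library 3 gave the other 2, at 13.3 CPM, against 4.97 CPM, and PVALB nuclei of library 4 had 0 UMIs in 24 nuclei, against 2.94 CPM in its other nuclei. Without library 1 the log2 difference was 0.10, against 2.11 with it. The PVALB group also had the highest summed markers of satellite glia (6 genes, 2255 CPM, with 159 to 1571 CPM in the other marker groups), of Schwann cells (6 genes, 1300 CPM, elsewhere 401 to 1134 CPM), of fibroblasts (5 genes, 275 CPM, elsewhere 50.9 to 229 CPM) and of immune cells (5 genes, 552 CPM, elsewhere 124 to 331 CPM). The PVALB group was also by far the highest for summed markers of sensory neurons (7 genes, 19121 CPM, elsewhere 2805 to 6401 CPM). It was not the highest for endothelial cell markers, led by NTRK3 nuclei, or mural cell markers, led by ADCYAP1 nuclei. No satellite glia, Schwann cell, fibroblast or immune cell marker was at 0 in the PVALB group. The same held in the other marker groups, except for 1 immune cell marker in NTRK2 nuclei. The part of these cell types in the CNR1 level was not tested. The 20 PVALB nuclei of library 4 in a cluster of their own had the most satellite glia markers, at 3918 CPM, and 0 CNR1 UMIs.

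Joined by marker, the C-fibre groups (TRPM8, IL31RA, GFRA2 and ADCYAP1, 1373 nuclei) were set beside the large-fibre groups (NTRK2, NTRK3 and PVALB, 471 nuclei). The KIT group was kept apart. Of the 7 receptors, 2 were at least 2-fold higher in C-fibre groups, with 5.05% of 12999 genes on that side. Another 2 were at least 2-fold lower, with 9.39% of genes on that side. GRM7 was at 1270 CPM in C-fibre groups, against 274 CPM in large-fibre groups, 4.64-fold higher (4.37 to 4.94). GRM3 was at 15.2 CPM, against 5.28 CPM, 2.88-fold higher (1.84 to 4.72). Of the C-fibre groups TRPM8 stood at 52.4 CPM and ADCYAP1 at 11.5 CPM. IL31RA and GFRA2 nuclei, at 7.30 and 7.06 CPM, were below the large-fibre NTRK3 group, at 9.77 CPM. PVALB nuclei had 1.64 CPM and NTRK2 nuclei 0 UMIs. CNR1 was at 2.97 CPM, against 9.61 CPM, and CHRM2 at 5.04 CPM, against 11.0 CPM, which made them 3.23-fold and 2.19-fold lower.

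The other 3 receptors did not reach 2-fold between the sides. NPY2R was at 7.65 CPM in C-fibre groups, against 4.08 CPM, 1.87-fold higher (1.10 to 3.37). Only IL31RA nuclei (26.6 CPM from 73 UMIs) made that side higher. TRPM8, ADCYAP1 and GFRA2 nuclei stood below the large-fibre level, at 1.89, 1.71 and 0.744 CPM. GRM8 was at 136 CPM, against 124 CPM, 1.10-fold higher (0.99 to 1.21), although its level spanned from 40.1 to 284 CPM within the C-fibre groups and from 46.0 to 397 CPM within the large-fibre groups. GRM5 was at 30.97 CPM, against 37.2 CPM, a ratio of 0.83 (0.69 to 1.01). The sign of the GRM8 difference turned without library 1 (log2 -0.10) and that of GRM5 without library 6 (log2 0.04). That of NPY2R turned to -0.99 after thinning, where 6 and 4 UMIs were left, and to -0.13 as a mean of within-library ratios, against 0.91. The CNR1 difference was -0.67 without library 1, against -1.69, and that of GRM3 was 0.68 with each nucleus grouped by its own highest marker, against 1.53. Without the shallow TRPM8 cluster all 7 kept their sign, with 2.25 for GRM7 and 1.42 for GRM3. The CHRM2 difference turned to a log2 value of 1.43 after thinning, where 8 and 1 UMIs were left, so its direction cannot be told at equal depth.

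**Figure D4:**
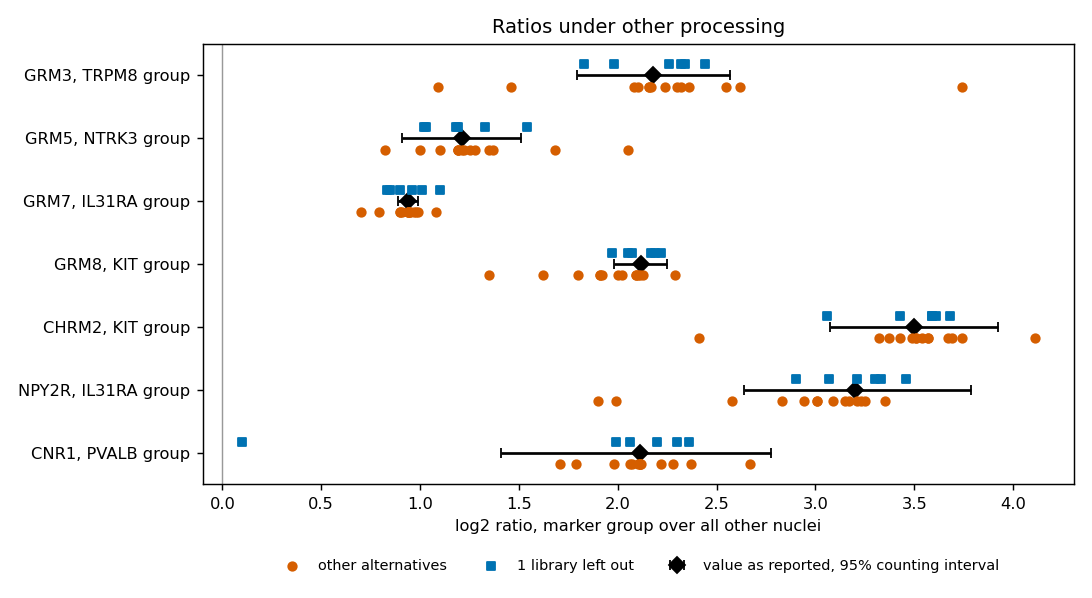
Log2 difference of each receptor gene between its highest marker group and all other nuclei, as reported and under each alternative setting. All 140 alternative values are above 0, and the lowest of all is CNR1 without library 1, at 0.10. Those of GRM3 run from 1.09 to 3.74, the latter at resolution 0.5, where the TRPM8 group held another set of nuclei.

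Beyond the 7, the lists of the same pathway held 75 genes, of which 53 had enough UMIs in every comparison. GRM4, another group III receptor, was highest in KIT nuclei at 89.4 CPM, against 35.0 CPM in all other nuclei, 2.55-fold higher (2.03 to 3.18). NPY1R was highest in IL31RA nuclei like NPY2R, at 82.4 CPM, against 20.8 CPM, 3.96-fold higher (3.31 to 4.71). So was NPY5R, at 9.12 CPM (5.90 to 13.5) from 25 UMIs, against 2.82 CPM. Its interval overlapped those of TRPM8 nuclei, at 6.32 CPM (3.03 to 11.6), and ADCYAP1 nuclei, at 5.62 CPM (3.56 to 8.43). KIT nuclei thus carried GRM4, GRM8 and CHRM2 at their highest level, and IL31RA nuclei NPY1R, NPY2R, NPY5R and GRM7. GRM2, GRM6, CHRM3 and CHRM4 stayed at or below 5.09 CPM in every group, CHRM5 and CNR2 were at 0, and the ligand gene NPY had 8 UMIs in all nuclei.

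**Figure D5:**
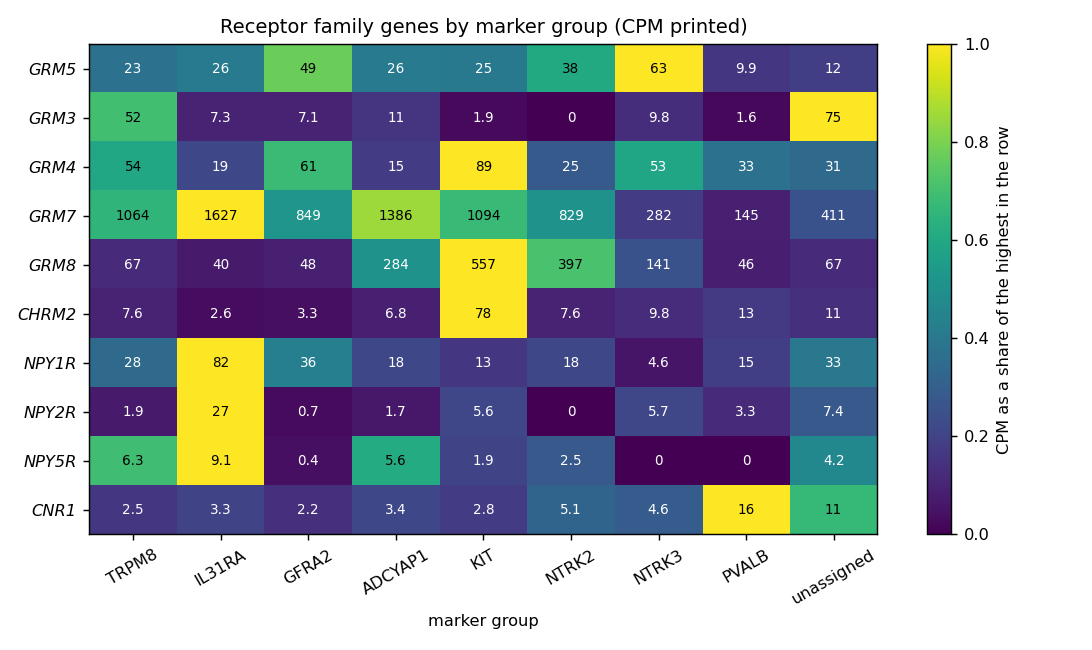
Level of the 7 receptor genes and of GRM4, NPY1R and NPY5R by marker group, in CPM, with each row coloured relative to its own highest group. GRM4, GRM8 and CHRM2 are highest in the KIT group, and NPY1R, NPY2R, NPY5R and GRM7 in the IL31RA group. For NPY5R the counting interval overlaps those of TRPM8 and ADCYAP1 nuclei.

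Among the 53 other list genes, 9 were at least 2-fold higher in IL31RA nuclei (17.0%, against 2.53% of all genes) and 9 lower (17.0%, against 10.8%). KIT nuclei had 8 higher (15.1%, against 4.71%) and 12 lower (22.6%, against 15.9%). In NTRK3 nuclei 8 were higher (15.1%, against 13.5%) and 15 lower (28.3%, against 19.9%). PVALB nuclei had 0 higher, against 17.4% of all genes, and 16 lower (30.2%, against 25.4%), a share near that of all genes. TRPM8 nuclei had 3 higher (5.66%, against 2.46%) and 6 lower (11.3%, against 6.75%), GFRA2 nuclei 4 (7.55%, against 3.37%) and 6 (11.3%, against 8.91%). ADCYAP1 nuclei had 1 (1.89%, against 2.59%) and 6 (11.3%, against 8.25%), and NTRK2 nuclei 3 (5.66%, against 8.52%) and 10 (18.9%, against 17.5%). Between C-fibre and large-fibre groups 11 were higher (20.8%, against 5.05%) and 4 lower (7.55%, against 9.39%). The medians of these 53 genes on the log2 scale ran from -0.38 in the NTRK3 comparison to 0.16 between C-fibre and large-fibre groups.

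In IL31RA nuclei the choline transporter SLC5A7, which feeds acetylcholine synthesis, stood at 147 CPM, against 20.6 CPM in all other nuclei, 7.14-fold higher. The other acetylcholine genes of the lists did not all follow it. CHAT had 1 UMI in IL31RA and 2 UMIs in GFRA2 nuclei, and SLC18A3 had 0 UMIs in every group. ACHE was highest in IL31RA nuclei, at 154 CPM. PLCB3, the phospholipase below Gq-coupled receptors, was 4.32-fold higher and the adenylyl cyclase ADCY8 4.63-fold lower there. In KIT nuclei KCNJ3, a subunit of the potassium channel opened by M2 receptors, was 3.16-fold higher, at 184 CPM against 58.5 CPM. ADCY8 was 3.12-fold higher in KIT nuclei, and SLC5A7 had 3 UMIs, at 2.82 CPM against 43.2 CPM. TRPM8 nuclei had the receptor kinase GRK3 at 3.62-fold and the cyclase ADCY2 at 3.29-fold the level of all other nuclei, and ADCY8 was 6.93-fold lower.

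GFRA2 nuclei, where 5 of the 7 receptors were at least 2-fold lower, had the Gq-class subunit GNA14 at 591 CPM, against 116 CPM, 5.07-fold higher. SLC5A7 was 2.72-fold higher in them, and NPY5R had 1 UMI. In ADCYAP1 nuclei the potassium channel subunit KCNJ6 was 2.26-fold and the scaffold GRIP1 2.00-fold higher, while SLC5A7 was 8.80-fold lower. NTRK2 nuclei had HOMER2, a scaffold of group I receptors, at 4.13-fold and KCNJ3 at 2.42-fold the level of all other nuclei, with 1 SLC5A7 UMI. NTRK3 nuclei, highest for GRM5, had the cyclases ADCY1 and ADCY8 9.71-fold and 7.49-fold higher, with 5 SLC5A7 UMIs. PVALB nuclei had CNRIP1, a protein that binds the CB1 receptor, 1.94-fold higher and the subunit GNB5 1.81-fold higher, and GRIP1 was 10.7-fold lower.

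For each receptor the genes with the most similar pattern were taken over 25 combinations of marker group and library, from 4 libraries, among 8573 genes with at least 200 UMIs. The measure was Pearson's r of log2 levels centred within each library, given as a description, since the points share libraries, depth and the clustering itself. GRM7 was most like LRGUK (r = 0.94), CACNA2D1 (0.94) and KCNIP4 (0.93). GRM8 was most like SUCLG2 (0.92), VWC2L (0.91) and SLC44A5 (0.91). CHRM2 followed CDH13 (0.90), CDH4 (0.89) and RELL1 (0.88), and CDH13 is itself the leading gene of a KIT cluster. GRM3 was most like IGSF21 (0.86), CALCR (0.83) and COLQ (0.83), of which COLQ and CALCR lead or are near the lead of TRPM8 clusters. NPY2R was most like KCP (0.83), SLC6A20 (0.82) and TRPC6 (0.75), and CNR1 like TBCA (0.79), FKBP3 (0.76) and HACD2 (0.76). GRM5 had the weakest likeness, with FLT3 at 0.75 and PEX5L and SEMA3A at 0.74.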

How the data were processed

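The authors deposited 1 table of raw UMI counts, 30477 genes by 2189 nuclei, with no normalization; the submitters' processing notes name Cell Ranger 6.0.1, Seurat and the Sscrofa11.1 build but give no role for them. The sources used here give no filter on nuclei. Of 14012 rows with an Ensembl identifier, 773 received a symbol. The 7 receptors and all lists were chosen with earlier results of these data known. A test over pigs was planned only if columns named pigs, and they did not, so no p-value was computed.

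Counts were scaled to 10000 per nucleus and log-transformed in scanpy 1.11.5 (Python 3.11.15). From the 2000 most variable genes those of the 82 listed pathway genes were left out (1993 remained). Leiden clustering (resolution 1, 30 principal components, 15 neighbours, seed 0) gave 23 clusters. A cluster joined the marker with the highest mean log2 ratio (CPM + 10) against the rest of its libraries, from a ratio of 1. Scrublet marked 61 of 2176 nuclei (2.80%) as doublets, in libraries of at least 50 nuclei. These nuclei were kept, and an alternative leaves them out. Every nucleus had at least 501 UMIs.

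CPM carry exact Poisson, ratios exact conditional binomial and shares exact Clopper-Pearson intervals (95%), for counting error only. Where a group had no count, 3 counts per group served as its floor. Ratios needed 50 UMIs over both sides, and library ratios 10 nuclei per side and 10 UMIs. For other list genes, the 2 highest and the lowest ratio per group whose interval excluded 1 were named, with genes of the receptor families, of which 1 is not reported here. The ratio computation was tested on simulated counts. RefSeq coordinates are of Sscrofa11.1.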

Additional observations from a re-analysis of the deposited data

How the results depend on the processing

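Values are log2 differences between the highest group and all other nuclei. All 140 alternative values for the 7 receptors kept their direction. Leaving out 1 library at a time gave 1.83 to 2.44 for GRM3, 1.02 to 1.54 for GRM5, 0.83 to 1.10 for GRM7, 1.97 to 2.22 for GRM8, 3.06 to 3.68 for CHRM2, 2.90 to 3.46 for NPY2R and 0.10 to 2.36 for CNR1, the lowest without library 1. Leiden resolution 0.5 gave 3.74 for GRM3, 0.70 for GRM7, 1.62 for GRM8 and 1.90 for NPY2R, and resolution 1.5 gave 2.62 for GRM3 and 0.79 for GRM7. At resolution 0.5 the TRPM8 group was a cluster of 159 nuclei, 114 of them from library 3, with 1 of the 295 shallow nuclei. Its 18 nuclei of library 5 and 11 of library 6 match the numbers in the UNC5D cluster, unassigned at resolution 1. The GRM3 value of 3.74 is thus of another set of nuclei than the main one. Grouping each nucleus by its own highest marker gave 0.82 for GRM5, 1.35 for GRM8 and 2.41 for CHRM2. The mean over nuclei gave 1.46 for GRM3, 1.68 for GRM5 and 1.91 for GRM8. Thinning to 1000 UMIs gave 1.09 for GRM3, 2.05 for GRM5, 1.80 for GRM8, 4.11 for CHRM2 and 1.99 for NPY2R. Median-of-ratios scaling gave 1.08 for GRM7 and 2.29 for GRM8, the within-library mean 1.92 for GRM8 and 2.58 for NPY2R, and leaving out nuclei above 50000 UMIs 1.91 for GRM8. The cause was not tested.

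Of the 396 alternative values for 20 other pairs past 2-fold, whose intervals excluded 1, 392 kept their direction. GRM3 in IL31RA nuclei turned to 0.10 at resolution 0.5. Grouping by own marker turned GRM3 in NTRK2 nuclei to 0.19, GRM8 in TRPM8 nuclei to 0.14 and GRM8 in NTRK2 nuclei to -0.96. CHRM2 between C-fibre and large-fibre groups turned to 1.43 after thinning. At a threshold of 1.5-fold, 37 pairs in place of 28 passed, and at a minimum of 10 UMIs 28 did. Leaving out doublets, the shallow TRPM8 cluster, the PVALB cluster of library 4 or the top nucleus were chosen after seeing the data. After thinning, 3 alternatives held 0 UMIs and gave no value. No paired analysis was possible because the columns carry no pig numbers. GRM3, CHRM2, NPY2R and CNR1 have under 300 UMIs each, which limits their order below the first group.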
